A study of Mus musculus with 22 samples.

Results

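The comparison described here set the cerebral cortex of the mouse against its cerebellum. Libraries were taken by the region in their labels, which gave 15 of the 22 libraries of the series, 8 of cortex and 7 of cerebellum, from 8 mice. Of the cortex libraries 4 came from wild-type (WT) and 4 from CD mice, and of the cerebellum libraries 4 came from WT and 3 from CD mice. The group sizes in the series' design text are smaller, and all labelled libraries were used here. Both regions were sequenced from 7 of the mice, and CD mouse m138 entered with its cortex alone. CD stands for circTulp4-deficient: these mice carry a changed splice acceptor in Tulp4, through which less of a circular RNA of this gene is made, and the line was kept on a C57BL/6 background and went back to 1 mosaic founder male. The age and sex of these mice are not given in the sources used here. The other 7 libraries are of hippocampus and were used for a few values beside the comparison. The study asked whether CD and WT brains differ; here both genotypes were kept, genotype was a covariate, and the question was which genes and functions part the cortex from the cerebellum.

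The cortex is built of excitatory projection neurons in layers, which come from the dorsal forebrain, and of GABA interneurons that migrate in from below. In the cerebellum most cells are granule cells, small excitatory neurons whose parallel fibres contact the Purkinje cells, the GABA neurons that carry the output of the cerebellar cortex. Golgi, stellate, basket and unipolar brush cells and the Bergmann glia, radial astrocytes wrapped around the Purkinje dendrites, complete the circuit, and the transcription factors that lay out the forebrain and the hindbrain differ.

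Values are cpm, each gene's share of the library's counts scaled to a fixed total, after TMM scaling, in the 8 cortex and 7 cerebellum libraries. Each library held between 2757684 and 8638788 counts once 1 transcript per gene was kept, the fewest in the cortex library of WT mouse m244. A log2 fold change is that of the cerebellum against the cortex, so a positive value is higher in the cerebellum, and a bare number in brackets after a gene is its log2 fold change. Its standard error (SE) is approximate: the size of the log2 fold change divided by the square root of the F statistic of the edgeR fit. A gene passed where its adjusted p was below 0.01 and its fold above 2. Reads were counted at the 3′ end of transcripts, so levels of different genes are not compared per length and only differences of 1 gene between regions are tested. A whole region was sequenced, and fewer cells of a type cannot be told apart from less RNA per cell.

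The targeted gene was read first. Tulp4 stood at 8.08 to 16.6 cpm (mean 11.5 ± 3.72 SD, n = 4) in WT and 4.94 to 7.43 cpm (mean 5.79 ± 1.16 SD, n = 4) in CD cortex, and at 8.13 to 24.01 cpm (mean 14.4 ± 6.81 SD, n = 4) in WT and 9.51 to 11.8 cpm (mean 10.3 ± 1.27 SD, n = 3) in CD cerebellum. Between the regions its log2 fold change was 0.53 ± 0.21 (SE), adjusted p = 0.0303, and it did not pass. The counts come from the poly(A) end of linear transcripts and so do not check the loss of the circle. The CD cortex libraries all lay below the WT ones, and in the cerebellum the genotypes overlapped. This difference in the cortex was not tested here, and the CD cortex levels lay near the filter of 5 cpm. In the brain, the paper reports no genotype difference in linear Tulp4 by RT-qPCR or in Tulp4 protein by Western blot. The region labels were compared with all genes and, below, with markers of each region, whose lists were chosen with earlier results known. On the first principal component of the 500 most variable genes, which held 94.5% of the variance, the cortex libraries lay between 43.01 and 44.5 and the cerebellum libraries between -51.9 and -47.2. No library stood with the other region, and replicate libraries of a group differed more than counting alone would give, with a chi-square of 6.2 to 16.8 per degree of freedom over 21 pairs, and none was a repeat of another.

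Of 10852 genes tested 2423 passed, which is 22.3%. Of them 1061 were higher in the cerebellum (9.78% of genes tested) and 1362 higher in the cortex (12.6%). The split rested on the scaling: with library totals in place of TMM the median gene moved from 0.02 to 0.27 on the log2 scale, and 1536 genes were called higher in the cerebellum against 1083 in the cortex. Past 8-fold there were 193 genes higher in the cerebellum and 341 higher in the cortex, and past 32-fold 61 and 106. The libraries of the regions did not overlap for 931 of the 1061 genes and for 1226 of the 1362, beside 3622 of all 10852 genes tested (33.4%), and within mice 1011 and 1314 of them went the same way in all 7 pairs. The pairs are of the same libraries that called these genes, so they are not separate support. The share over all genes tested was not counted for the pairs. The genes higher in the cortex held between 24.1 and 26.8% of the counts of a cortex library and between 7.41 and 7.86% of those of a cerebellum library, whereas the genes higher in the cerebellum held between 12.6 and 13.03% in the cerebellum and between 2.95 and 3.17% in the cortex. At the other end, 4051 genes had an approximate 95% interval, built from the SE, that lay within 1.5-fold of equality.

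**Figure D1:**
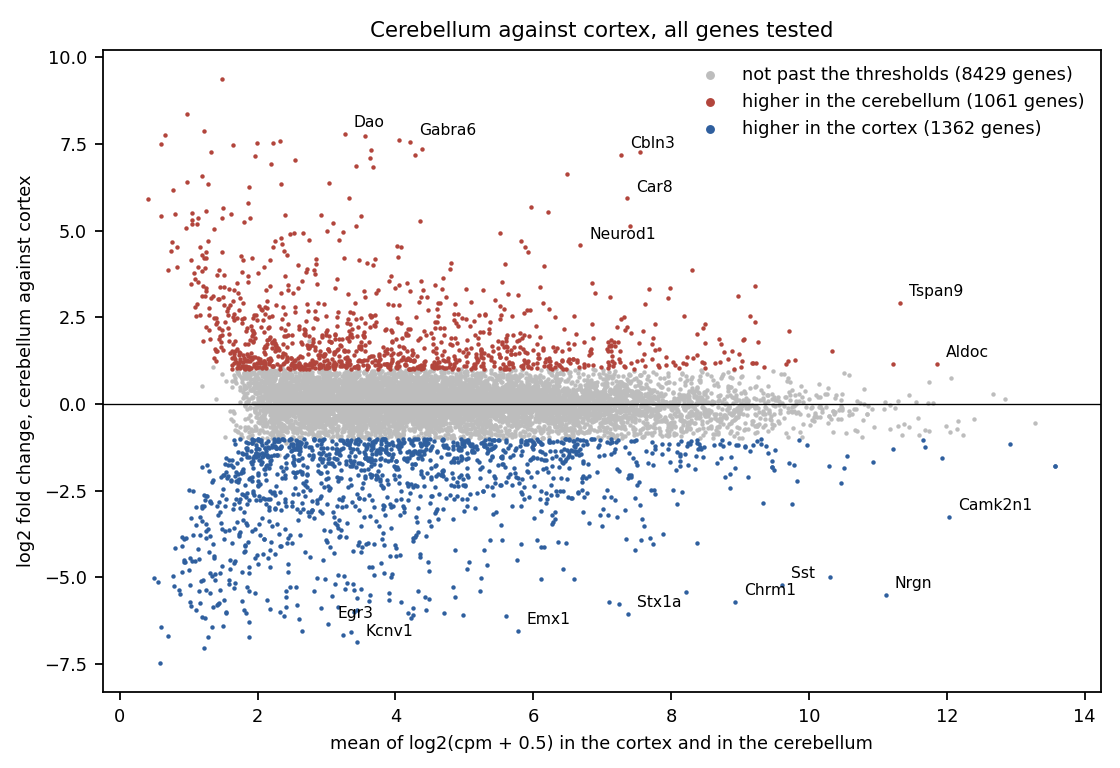
Each point is 1 of the 10852 genes tested, with the mean of its log2(cpm + 0.5) level over the regions on the x axis and its log2 fold change of the cerebellum against the cortex on the y axis. The 1061 genes in red and the 1362 in blue passed the thresholds, and the labelled genes reach from 7.79 for Dao to -6.88 for Kcnv1.

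The regions were also compared within each genotype alone. The WT libraries called 2253 of 10559 genes and the CD libraries 2307 of 10365, and 1901 genes were called in the same direction by both, 87.5% of those called in WT and 84.4% of those called in CD mice among the genes tested in both. No gene was called in opposite directions.

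Of the 15 genes with the largest differences toward the cerebellum 6 were on the lists of its neurons, 2 on the list of hindbrain and cerebellar transcription factors and 7 on neither. Gabra6, a GABA-A receptor subunit of granule cells, stood at 0.631 to 1.81 cpm (median 1.15) in the cortex and 193 to 223 cpm (median 209) in the cerebellum. The groups did not overlap, and the log2 fold change was 7.56 ± 0.13 (SE), adjusted p = 9.28e-21, or 188-fold. Pcp2, a Purkinje cell protein that acts on G proteins, stood at 10.2 to 26.7 cpm (median 13.95) in the cortex and 2038 to 2432 cpm (median 2263) in the cerebellum, a log2 fold change of 7.26 ± 0.14 (SE). Cbln3, a granule cell partner of the synapse organizer Cbln1, stood at 9.87 to 19.4 cpm (median 12.01) in the cortex and 1246 to 2277 cpm (median 1865) in the cerebellum. All 7 mice had more of each of these 3 in the cerebellum. Dao, which breaks down D-serine, had the largest log2 fold change of the genes named by rule, 7.79 ± 0.21 (SE), from 0 to 1.09 cpm (median 0.38) in the cortex and 80.4 to 119 cpm (median 105) in the cerebellum. Uncx, En2 and Eomes are transcription factors, and Cnpy1 encodes a protein of fibroblast growth factor signalling at the border of midbrain and hindbrain. Their log2 fold changes were 7.603, 7.097, 7.03 and 7.73. Fat2, a giant cadherin of parallel fibres, was at 0 in 5 of 8 cortex libraries, at most 4 counts in the others, and at 27.1 to 46.7 cpm (median 38.9) in the cerebellum, with a log2 fold change of 7.58. Smpx, known from striated muscle, gave at most 2 counts in any cortex library and 19.8 to 27.8 cpm (median 26.1) in the cerebellum, a pooled ratio of 220.3 (95% interval 94.1 to 679.9, counting error only). Also among these were Nrk (7.32), Cpsf4l (7.54), Ppp1r17, a Purkinje cell phosphatase inhibitor (7.17), and the noncoding Lhx1os (7.34).

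Toward the cortex the 15 genes with the largest differences were of many kinds. Kcnv1, a modifier of Kv2 potassium channels, stood at 78.1 to 105 cpm (median 94.1) in the cortex and 0.374 to 1.103 cpm (median 0.701) in the cerebellum. The groups did not overlap and the log2 fold change was -6.88 ± 0.14 (SE), adjusted p = 7.36e-20, or 118.2-fold. Emx1, the transcription factor of the dorsal forebrain, stood at 349 to 598 cpm (median 521) in the cortex and 3.33 to 8.81 cpm (median 4.49) in the cerebellum, a log2 fold change of -6.55 ± 0.17 (SE). Stx1a, a SNARE protein of the presynaptic membrane, stood at 1203 to 1593 cpm (median 1259) in the cortex and 15.3 to 30.2 cpm (median 17.8) in the cerebellum, a log2 fold change of -6.06 ± 0.14 (SE). The same list held Tgm3 (-6.67), a transglutaminase, Krt12 (-6.59), a keratin, Dkkl1 (-6.56), Kcnh4 (-6.21), a potassium channel, Rasgrf2 (-6.18), an exchange factor for Ras, Cckbr (-6.05), the cholecystokinin B receptor, and Cpne5 (-6.05), a copine.

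Some of the most abundant transcripts of these libraries also differed. Nrgn, neurogranin, a calmodulin-binding protein of dendritic spines, took 12724 to 18619 cpm (median 15243) in the cortex and 273 to 478 cpm (median 312) in the cerebellum, a log2 fold change of -5.51 ± 0.14 (SE). Camk2n1, an inhibitor of CaM kinase II, stood at 10295 to 16686 cpm (median 12502) in the cortex and 1174 to 1527 cpm (median 1353) in the cerebellum (-3.26), and Ctxn1 fell from a median of 7281 in the cortex to 209.6 in the cerebellum (-4.99). Gp1bb and Septin5 overlap on 1 strand and had nearly the same counts, with medians of 23058 and 22966 cpm in the cortex, so the reads of the 2 genes cannot be told apart. In the cerebellum the most abundant of the genes that were higher was Tspan9, a tetraspanin, at 692 to 1127 cpm (median 973) in the cortex and 6415 to 7696 cpm (median 6957) in the cerebellum (2.91). Aldoc, the aldolase of astrocytes and of a subset of Purkinje cells, followed at 2251 to 2722 cpm (median 2507) in the cortex and 4889 to 6506 cpm (median 5584) in the cerebellum, a difference of 1.15 ± 0.072 (SE).

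For the genes with the largest differences the region that had less still gave reads. Over the 32 genes more than 32-fold higher in the cerebellum with a mean of at least 20 cpm there, the mean level in the cortex was a median of 0.83% of that in the cerebellum, with a range of 0.376 to 2.88%. Summed over these genes, cortex libraries ranged from 1.07 to 1.49% of the cerebellum level, the highest in WT mouse m244, whose library was the shallowest. For the 61 genes of the same kind higher in the cortex the cerebellum had a median of 1.94%, and library sums from 1.79 to 3.03%, again highest in WT mouse m244. What gave these reads was not tested.

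Granule cell genes were all higher in the cerebellum, 15 of 15 listed and tested, with a median log2 fold change of 4.57 against 0.02 over all genes tested. This and the counts below stand beside 9.78% of all genes tested that were higher in the cerebellum and 12.6% higher in the cortex. The lists were chosen with earlier results of these data known. Their counts are therefore descriptions and not independent support, and no list was tested as a set. Neurod1, the basic helix-loop-helix factor of granule cell differentiation, stood at 15.03 to 29.8 cpm (median 20.3) in the cortex and 446 to 575 cpm (median 477) in the cerebellum (4.57). Calb2, calretinin, stood at 22.8 to 38.4 cpm (median 28.03) in the cortex and 817 to 1303 cpm (median 879) in the cerebellum (5.13), and Cbln1, the precursor of cerebellin secreted from parallel fibres, at 3.24 to 21.3 cpm (median 8.801) in the cortex and 804 to 918 cpm (median 848) in the cerebellum (6.62). Zic1 (4.93) and Pax6 (3.89) are transcription factors of this lineage. Gabrd, the delta subunit of extrasynaptic GABA-A receptors, had the smallest difference, 1.195 ± 0.13 (SE). It lies opposite Cfap74, which was also higher in the cerebellum (2.104), and whether counting used strand is not stated. Summed over the list, the libraries ranged from 301 to 478 cpm in the cortex and from 5399 to 6764 cpm in the cerebellum.

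Purkinje cell genes went the same way for 14 of 14 tested of 15 listed, with a median log2 fold change of 3.86. Car8, a protein that binds the inositol trisphosphate receptor, stood at 16.6 to 24.6 cpm (median 20.4) in the cortex and 1132 to 1433 cpm (median 1267) in the cerebellum (5.93). Slc1a6, the glutamate transporter of Purkinje spines, rose from a median of 13.4 to 287 cpm (4.37), and Rgs8 from 78.5 to 863 (3.35). Calb1, calbindin, and Pcp4, which also occur in cortical neurons, differed less, 2.52 ± 0.14 (SE) and 2.12 ± 0.19 (SE). Itpr1 (1.88) and the phospholipase Plcb4 (1.73), which act in turn in calcium release, were both higher in the cerebellum.

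Of 11 tested genes of the other cerebellar neurons 6 were higher in the cerebellum and 3 in the cortex. Eomes marks unipolar brush cells and stood at 0 to 0.757 cpm (median 0.272) in the cortex and 27.02 to 57.00 cpm (median 42.8) in the cerebellum. Tfap2b (4.72) and Pax2 (3.04) belong to the cerebellar interneuron lineage, and Kit (2.16) to stellate and basket cells. Grm2, of Golgi cells, went toward the cortex (-1.29), as did Nxph1 (-1.49), a neurexin ligand, and Sorcs3 (-1.16), which lost its call with library totals (-0.92). Of 7 tested Bergmann glia genes 5 were higher in the cerebellum, among them Gdf10 (4.02), a growth factor, and Gria4 (2.49), an AMPA receptor subunit, and Zeb2 was higher in the cortex (-1.27).

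**Figure D2:**
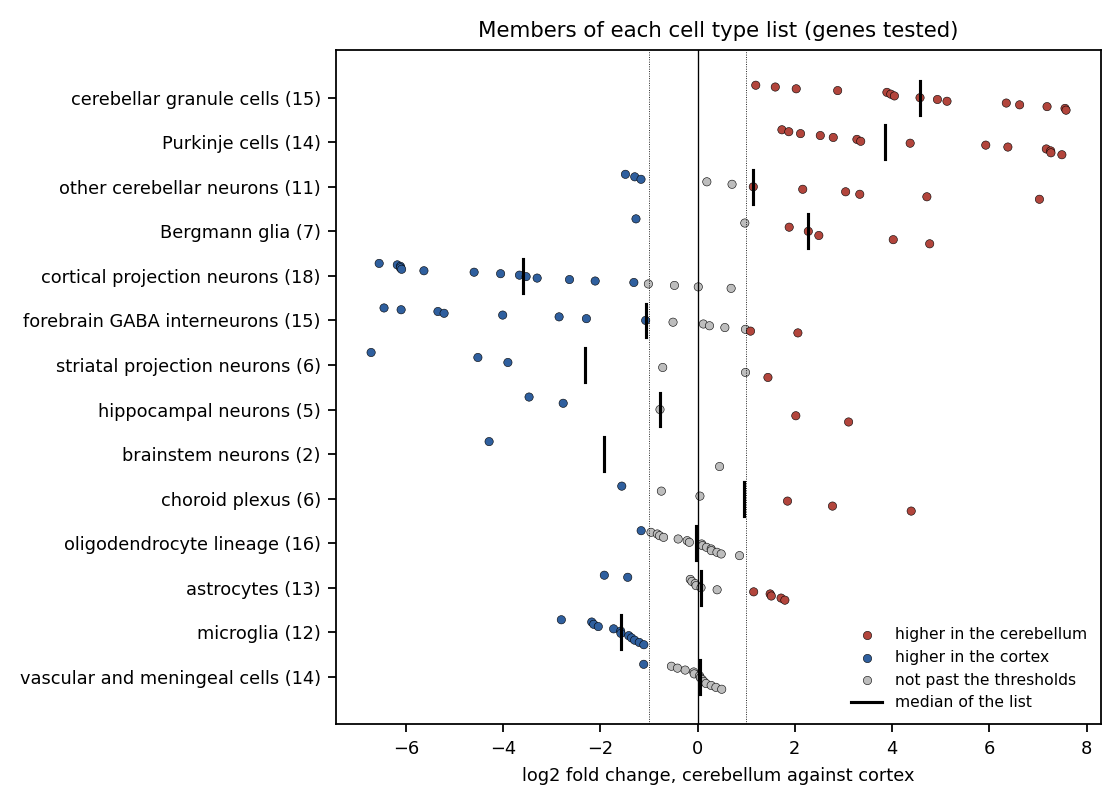
Each point is the log2 fold change of 1 gene tested, with a row for each cell type list, the number of genes tested in brackets, and a line at the list's median; dotted lines mark 2-fold. The granule and Purkinje lists lie wholly to the right of the dotted line at 1, microglia wholly to the left of that at -1, and oligodendrocyte and vascular genes around 0.

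Genes of cortical projection neurons were higher in the cortex for 14 of 18, none was higher in the cerebellum, and the median was -3.597. Tbr1, the T-box factor of deep layers, stood at 209 to 271 cpm (median 239) in the cortex and 1.38 to 5.76 cpm (median 4.11) in the cerebellum (-6.09). Lamp5, found in upper layers and in a class of interneurons, stood at 319 to 428 cpm (median 399.7) in the cortex and 2.99 to 7.91 cpm (median 5.26) in the cerebellum (-6.11). Fezf2 and Bcl11b, of neurons that project below the cortex, had log2 fold changes of -5.63 and -4.598. Rorb, of layer 4, differed by -2.64 ± 0.23 (SE). The 4 that did not pass included Cux1, at 0.01 ± 0.17 (SE), and Neurod2, with a median of 299 cpm in the cortex and 501 in the cerebellum and a log2 fold change of 0.69 ± 0.089 (SE). Slc17a7, the vesicular glutamate transporter that granule cells also use, differed by -1.31, and Slc17a6, its relative of subcortical neurons, by -4.29, from 15.1 to 52.02 cpm (median 39.7) in the cortex and 0.374 to 4.005 cpm (median 1.21) in the cerebellum.

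Of the genes of forebrain interneurons, higher in the cortex were 8 of 15 tested of 22 listed, and 2 were higher in the cerebellum. Peptides and patterning factors made up most of the 8: Sst, somatostatin, stood at 3934 to 6295 cpm (median 4663) in the cortex and 97.6 to 194 cpm (median 109) in the cerebellum, a log2 fold change of -5.22 ± 0.16 (SE). Vip (-6.100), Cck (-2.85) and Npy (-2.29) followed, with the homeobox factors Dlx1 (-5.34) and Lhx6 (-4.01). Genes of GABA itself did not go that way. The vesicular transporter Slc32a1 was higher in the cerebellum, 1.09 ± 0.083 (SE), and the synthetic enzymes Gad1 and Gad2 did not pass, at 0.56 ± 0.11 (SE) and 0.12 ± 0.10 (SE). Reln, reelin, which granule cells and some cortical interneurons secrete, was higher in the cerebellum (2.06).

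Most listed transcription factors were higher in the region whose list they were on. The forebrain list includes Egr3, which is counted with the immediate early genes below as well. Of 26 tested factors of the hindbrain and cerebellum 22 were higher in the cerebellum and 2 in the cortex, and of 24 factors of the forebrain 17 were higher in the cortex and 0 in the cerebellum, with medians of 4.14 and -3.68. On the hindbrain side these included the engrailed factor En2, at 0 to 1.94 cpm (median 0.916) in the cortex and 96.5 to 161.8 cpm (median 104) in the cerebellum (7.097), the Zic factors Zic1, Zic2 and Zic4 (from 3.19 for Zic4 to 4.93 for Zic1), the early B-cell factors Ebf1 (4.22), Ebf2 (3.402) and Ebf3 (3.79), and Rora, the nuclear receptor that Purkinje cells need (1.59). En1 had the widest error of these factors, with at most 1 count in any cortex library and 0.184 to 11.6 cpm (median 0.759) in the cerebellum, a log2 fold change of 6.17 ± 1.10 (SE). Its cerebellum level was 11.4 cpm in CD mouse m242, 11.6 in WT mouse m240 and 9.49 in WT mouse m244. In the other cerebellum libraries it was at or below 0.759 cpm. Meis2 broke from its relative Meis1: it stood at 23.97 to 48.8 cpm (median 34.02) in the cortex and 0.368 to 2.202 cpm (median 0.934) in the cerebellum, a log2 fold change of -5.04 ± 0.24 (SE), whereas Meis1 was higher in the cerebellum (4.55). Dlx1 lies opposite Dlx1as (-5.07), and whether counting used strand is not stated. Rora shares its strand with 9530091C08Rik (2.22). Whether reads are shared within these pairs was not tested. Lmx1b was also higher in the cortex (-1.73). On the forebrain side were Emx2 (at most 1 count in any cerebellum library, 6.63 to 11.3 cpm (median 9.25) in the cortex), Lhx2 (-5.96), Mef2c (-4.05) and Bcl11a (-2.603).

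Promoter windows were read for the genes tested, as RefSeq gives them on GRCm38.p6, from 250 bases before to 50 after each start, and 11281 windows of 8633 of the 10852 genes matched. The cAMP response element TGACGTCA, counted on either strand, lay in 3.08% of the windows of genes tested, in 1.51% of those higher in the cerebellum and in 2.23% of those higher in the cortex, against 1.79% of all windows in the table. AAGGTCA, the half-site read by Rora and other orphan receptors, lay in 3.08%, 4.45% and 2.71%, and the E-box CAGATGG of NeuroD factors in 3.52%, 4.54% and 3.82%. The homeodomain core TAATTA lay in 2.59%, 3.56% and 2.85%, and TATAAA in 6.9%, 7.12% and 9.53%. The windows of both groups held a median of 16 CpG, against 20 over genes tested. None of these shares was tested, and a match is not a bound site. The 4 windows below are shown because 1 motif sits in promoters of genes with large differences in both directions: 2 transcription factors higher in the cerebellum, Uncx (7.603) and Pax6 (3.89), and 2 neuropeptides higher in the cortex, Sst (-5.22) and Cartpt (-4.43). Capitals mark TGACGTCA, and each run is on the strand of its gene, 5′ to 3′.
Uncx promoter, chr5:139543648-139543947, plus strand: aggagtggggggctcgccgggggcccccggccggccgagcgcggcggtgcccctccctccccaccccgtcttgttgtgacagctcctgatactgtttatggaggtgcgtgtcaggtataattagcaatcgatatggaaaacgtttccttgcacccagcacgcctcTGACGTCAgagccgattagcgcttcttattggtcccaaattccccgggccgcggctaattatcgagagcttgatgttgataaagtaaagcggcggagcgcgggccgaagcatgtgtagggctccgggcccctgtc
Pax6 promoter, chr2:105668646-105668945, plus strand: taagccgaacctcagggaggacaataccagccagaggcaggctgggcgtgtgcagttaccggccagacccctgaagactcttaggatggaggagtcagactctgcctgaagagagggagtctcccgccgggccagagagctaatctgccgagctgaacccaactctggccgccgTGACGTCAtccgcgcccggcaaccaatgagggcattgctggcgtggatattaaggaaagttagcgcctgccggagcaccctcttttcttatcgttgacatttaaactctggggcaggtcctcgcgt
Sst promoter, chr16:23890795-23891094, minus strand: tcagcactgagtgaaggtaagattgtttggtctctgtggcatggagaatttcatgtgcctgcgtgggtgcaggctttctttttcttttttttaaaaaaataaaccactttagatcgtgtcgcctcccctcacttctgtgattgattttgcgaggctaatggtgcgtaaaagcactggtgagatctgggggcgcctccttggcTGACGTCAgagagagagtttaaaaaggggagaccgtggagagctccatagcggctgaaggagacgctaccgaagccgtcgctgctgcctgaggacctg
Cartpt promoter, chr13:99900634-99900933, minus strand: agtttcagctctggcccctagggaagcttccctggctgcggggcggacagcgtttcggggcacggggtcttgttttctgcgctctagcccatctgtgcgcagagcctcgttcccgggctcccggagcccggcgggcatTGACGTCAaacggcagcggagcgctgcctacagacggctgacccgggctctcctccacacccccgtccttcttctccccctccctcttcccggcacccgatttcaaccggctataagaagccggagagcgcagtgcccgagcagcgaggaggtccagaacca

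Receptors for glutamate differed within families, with members high on each side. Of 4 NMDA receptor genes tested Grin2c, the subunit of mature granule cells, stood at 8.57 to 13.05 cpm (median 10.04) in the cortex and 67.6 to 92.2 cpm (median 74.7) in the cerebellum (2.88), and Grin2b, the subunit of forebrain neurons, at 197 to 303 cpm (median 254) in the cortex and 12.3 to 22.1 cpm (median 15.8) in the cerebellum (-3.92). The obligate subunit Grin1 did not pass the 2-fold threshold, at -0.44 ± 0.082 (SE), but its libraries did not overlap, with 232 to 339 cpm (median 269.7) in the cortex and 183 to 214 cpm (median 204) in the cerebellum. Of the delta and kainate group Neto1, an auxiliary protein of kainate receptors, was higher in the cortex (-4.34). Of 7 metabotropic receptors Grm4, of parallel fibre terminals, stood at 66.2 to 102 cpm (median 79.97) in the cortex and 1006 to 1298 cpm (median 1207) in the cerebellum (3.85) and Grm5, of forebrain neurons, at 86.4 to 111 cpm (median 107) in the cortex and 2.27 to 5.38 cpm (median 4.04) in the cerebellum (-4.58). Of 13 AMPA receptor genes and their auxiliary proteins 3 were higher in the cerebellum and 6 in the cortex. Gria4 (2.49) and Cacng5 (3.64) were among the first, and Cacng3 (-3.97) and Cnih3 (-4.502), auxiliary proteins, among the second, while the subunit Gria1 did not pass, at 0.36 ± 0.12 (SE). The 4 cerebellins divided 2 to 2, Cbln1 and Cbln3 with the cerebellum and Cbln2 (-5.58) and Cbln4 (-5.66) with the cortex.

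Inhibitory receptors and regulators of G proteins also had members on each side. Of 12 GABA-A receptor subunits the alpha subunits took both ends, Gabra6 in the cerebellum and Gabra5 (-4.23), Gabra3 (-2.99) and Gabra4 (-1.94) in the cortex. The beta subunit Gabrb2 did not pass, with a log2 fold change of 0.03 ± 0.068 (SE). Of 14 regulators of G protein signalling, which speed the switching off of G proteins, 8 were higher in the cortex and only Rgs8 passed toward the cerebellum. Rgs4 was the furthest toward the cortex, at 1609 to 2257 cpm (median 1869) in the cortex and 30.8 to 57.6 cpm (median 47.1) in the cerebellum (-5.44). Receptors for monoamines, acetylcholine, cannabinoids and adenosine were higher in the cortex for 9 of 12 tested of 33 listed, with 1 higher in the cerebellum, and a median of -3.096. Chrm1, the M1 muscarinic receptor, stood at 2861 to 4447 cpm (median 3548) in the cortex and 51.7 to 92.3 cpm (median 63.5) in the cerebellum (-5.72), Adrb1, the beta-1 adrenoceptor, fell by 3.92 on the log2 scale toward the cerebellum, and Cnr1, the cannabinoid receptor, was the 1 that was higher there (1.598).

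**Figure D3:**
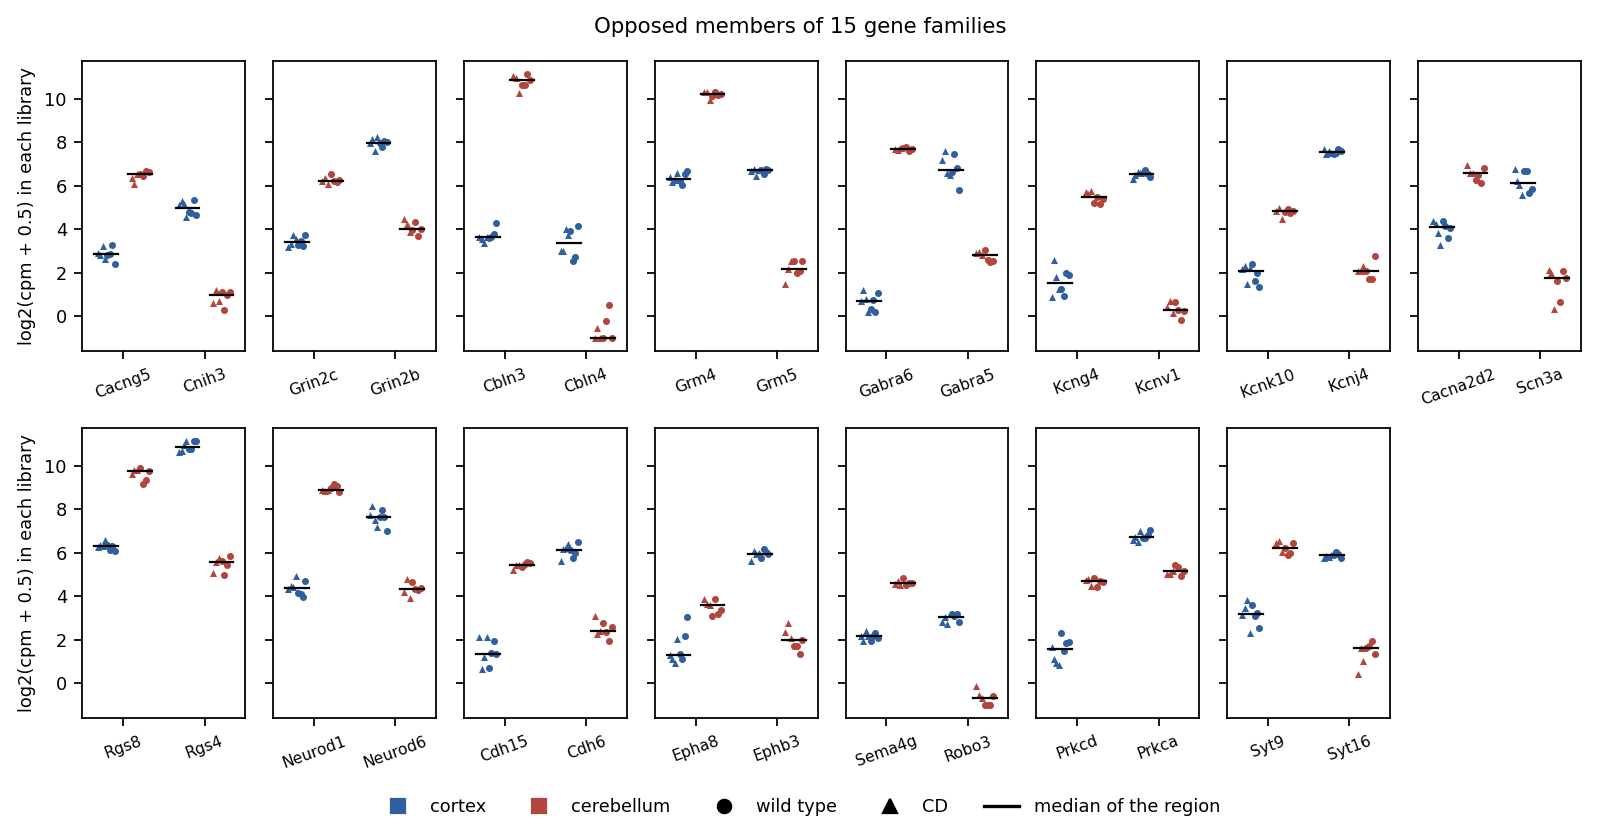
For each of 15 family lists the member with the largest difference toward the cerebellum (left) and toward the cortex (right) is shown as log2(cpm + 0.5) in each of the 8 cortex (blue) and 7 cerebellum (red) libraries, with a line at the median of the region. Some lists join different kinds of protein, such as AMPA receptors and their auxiliary proteins. By this choice the left gene of each pair is higher in red and the right gene higher in blue, with Gabra6 at 7.56 and Gabra5 at -4.23 as an example.

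Ion channels of both regions included members of the same subfamilies. Of 25 voltage-gated potassium channel genes 5 were higher in the cerebellum and 12 in the cortex. Kcnc1, a channel of fast-firing neurons, had a log2 fold change of 1.54 ± 0.093 (SE), but Kcnc2 of the same subfamily stood at 173 to 247 cpm (median 209) in the cortex and 3.51 to 10.7 cpm (median 6.07) in the cerebellum (-5.04). Kcng4, a silent subunit, was higher in the cerebellum (4.08), and the M-current subunit Kcnq5 (-5.68) in the cortex. Of the inward rectifiers Kcnj12 (2.195) and Kcnj4 (-5.56) were opposed. Of 26 sodium, calcium and HCN channel genes 3 were higher in the cerebellum, namely Cacna1a, the P/Q-type channel of Purkinje cells (1.16), Cacna1g (1.13) and Cacna2d2 (2.58), and 9 in the cortex, with Scn3a (-4.92) and Cacna1h (-3.997) the furthest.

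Calcium-binding and calcium-store proteins leaned to the cerebellum, 11 higher there and 6 in the cortex of 27, and the calmodulin kinases to the cortex, 3 and 9 of 22. Pvalb, parvalbumin, stood at 146 to 219 cpm (median 161) in the cortex and 1316 to 1624 cpm (median 1485) in the cerebellum (3.12), and Hpcal1 at 156 to 227 cpm (median 177) in the cortex and 1814 to 2109.6 cpm (median 1892) in the cerebellum (3.398), while its relatives Hpca (-2.55) and Hpcal4 (-3.91) were higher in the cortex. Camk2a, the alpha subunit of CaM kinase II, stood at 628 to 1520.3 cpm (median 771) in the cortex and 25.98 to 139 cpm (median 38.6) in the cerebellum (-3.76, SE 0.35), with 2 cerebellum libraries, of WT mouse m164 and CD mouse m242, at 132 and 139 cpm and the other 5 at or below 49.6 cpm. Camk4, of granule cells, was higher in the cerebellum (1.31). In cyclic nucleotide and nitric oxide signalling 5 of 26 were higher in the cerebellum and 14 in the cortex. The phosphodiesterases Pde1c (4.54) and Pde5a (2.57) and the nitric oxide synthase Nos1 (2.22) went with the cerebellum, and Pde1a (-4.64), Pde2a (-3.13) and Pde1b (-2.69) with the cortex.

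Of 35 tested genes of vesicle release 4 were higher in the cerebellum and 9 in the cortex, and 22 did not pass. Unc13c, a priming factor, was higher in the cerebellum (3.39) and its relative Unc13b in the cortex (-2.01). Doc2b (3.08) and Doc2a (-5.86), calcium sensors of spontaneous release, were opposed, as were the synaptotagmins Syt2 (2.37) and Syt1 (-1.75), the calcium sensors of fast release. Of 27 synaptic adhesion genes 11 passed, all toward the cortex (10, and 1 toward the cerebellum, with library totals), and of 11 delta-protocadherins 8 passed, all toward the cortex, from -1.72 for Pcdh17 to -3.93 for Pcdh8. Lrfn2 (-5.27) and C1ql3 (-4.12) led the adhesion genes. Of 16 ephrins and Eph receptors 9 were higher in the cortex, Ephb3 (-4.06), Ephb6 (-3.32) and Epha4 (-3.31) the furthest, and 3 in the cerebellum. Classical cadherins parted into Cdh15 (4.15) and Cdh7 (1.78) on the side of the cerebellum and Cdh6 (-3.71) and Cdh12 (-2.62) on that of the cortex.

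The neuropeptide list also holds the cerebellins Cbln1, Cbln2 and Cbln4, which were counted above as well. Of its 20 tested genes 15 were higher in the cortex, Cbln2 and Cbln4 among them. The 2 higher in the cerebellum were Cbln1 and Penk (1.45). Tac2, neurokinin B, stood at 69.1 to 119 cpm (median 90.3) in the cortex and 0.701 to 3.31 cpm (median 2.002) in the cerebellum (-5.45), and Cort (-4.59), a relative of somatostatin, Cartpt (-4.43) and Grp (-4.45) also passed. Immediate early genes, which are switched on by neuronal activity within minutes, were higher in the cortex for 13 of 19, with none higher in the cerebellum and a median of -2.39. Arc stood at 163.7 to 501 cpm (median 299) in the cortex and 14.4 to 20.5 cpm (median 16.5) in the cerebellum (-4.14), Egr1 at a median of 122 cpm in the cortex and 12.01 in the cerebellum (-3.17), and Egr3 differed by -6.36. Jun and Ier2 did not pass, at 0.86 ± 0.14 (SE) and 0.57 ± 0.14 (SE), and Jun passed toward the cerebellum with library totals (1.10). In neurotrophin signalling Bdnf (-1.28) and its receptor Ntrk2 (-1.64) were higher in the cortex and Ret (3.28), the receptor kinase of the GDNF family, in the cerebellum.

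Microglia genes were higher in the cortex. All 12 tested microglia genes of 13 listed were higher in the cortex, with a median of -1.58, and the furthest was P2ry12 (-2.804), a purine receptor of their processes; 10 of the 12 passed with library totals. Csf1r, the receptor that microglia need to live, stood at 94.8 to 120.1 cpm (median 111) in the cortex and 28.5 to 44.7 cpm (median 35.7) in the cerebellum (-1.58, SE 0.10), and Cx3cr1, the fractalkine receptor, at 22.5 to 38.01 cpm (median 25.9) in the cortex and 5.63 to 7.74 cpm (median 6.61) in the cerebellum (-2.04, SE 0.13). The sum over the list ranged from 701 to 985 cpm in the cortex and from 278 to 338 cpm in the cerebellum. Of 13 astrocyte genes 5 were higher in the cerebellum and 2 in the cortex, and the glutamate transporter Slc1a2, GLT-1, was higher in the cortex (-1.92, SE 0.073). Slc1a3, GLAST, stood at 0.97 ± 0.14 (SE) and passed toward the cerebellum without any 1 of CD cerebellum mouse m190, WT cerebellum mice m240 and m244 and WT cortex mouse m244 (up to 1.06). Aqp4 (1.72) and S100b (1.79) were higher in the cerebellum, and Gfap did not pass (-0.12, SE 0.13). Of 16 oligodendrocyte genes only Pdgfra, of their precursors, passed, toward the cortex (-1.16). With library totals it did not (-0.92) and 1 other gene passed toward the cerebellum. Mbp, myelin basic protein, stood at 0.28 ± 0.15 (SE). Of 14 vascular and meningeal genes only Acta2 of smooth muscle passed, toward the cortex (-1.11), and lost its call with library totals (-0.87) and without either of 2 WT cortex libraries (-0.99 without mouse m162 and -0.99 without mouse m244).

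Few genes of oxidative phosphorylation and of the ribosome passed. Of 76 tested nuclear genes of oxidative phosphorylation 72 did not pass, with a median of 0.14; the 4 that did are isoforms of cytochrome c oxidase, Cox6b2 (1.67), Cox7a1 (1.33) and Cox4i2 (1.05) higher in the cerebellum, and Cox6a2, the muscle-type isoform found in parvalbumin neurons, higher in the cortex (-5.35). Cox4i2 lost its call without CD cortex mouse m118, WT cerebellum mouse m244 or WT cortex mouse m162 (down to 0.93). None of 55 tested ribosomal protein genes of 83 listed passed, with a median of -0.21. With library totals the median was 0.04 and 1 passed toward the cerebellum. The rest of the list was below the filter, such as Rpl24, with 1 count over the cortex and 2 over the cerebellum libraries. Of 9 tested reference genes of quantitative PCR of 13 listed 1, Tubb5, passed (-1.04), and did not with upper quartile scaling (-0.99). Gapdh was below the filter, with 83 counts over the cortex and 60 over the cerebellum libraries. The tested members therefore do not stand for the whole of either list. Tbp, used as a reference in the study, had a log2 fold change of 0.88 ± 0.23 (SE) and an adjusted p of 0.00259, and stood at 2.43 to 9.96 cpm (median 6.68) in the cortex and 6.62 to 13.2 cpm (median 11.8) in the cerebellum, so its levels overlapped between the regions. Without WT cortex mouse m164 it passed (1.05). Rpl19 was below the filter, with 137 counts in the 8 cortex and 105 in the 7 cerebellum libraries. Of 18 clock genes 4 passed, near the share of all genes tested (22.3%). Nr1d1 stood at 0.02 ± 0.13 (SE), and Npas2 was higher in the cortex (-3.83).

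Genes of tissue that borders on either region were read as a check of dissection. Of 13 listed genes of striatal projection neurons 6 were tested, and the defining receptors Drd1, Drd2 and Adora2a were below the filter in both regions, with 17, 5 and 9 counts at most in a cortex library. Of those tested Tac1 was higher in the cortex (-3.903), Pdyn gave at most 3 counts in any cerebellum library and 13.9 to 26.9 cpm (median 18.6) in the cortex, and Penk was higher in the cerebellum. Of 18 listed genes of brainstem neurons 2 were tested and no Hox gene was among them. Of 6 tested choroid plexus genes of 10 listed 3 were higher in the cerebellum and 1 in the cortex. Slc4a5, a bicarbonate transporter, stood at 0 to 2.29 cpm (median 0.418) in the cortex and 3.36 to 5.88 cpm (median 4.88) in the cerebellum (2.77), and Clic6, of the chloride intracellular channel family, at 0.926 to 3.76 cpm (median 1.95) in the cortex and 6.73 to 9.57 cpm (median 7.54) in the cerebellum (1.85). Enpp2, autotaxin, which oligodendrocytes also express, was higher in the cortex, with 272 to 349.9 cpm (median 296) in the cortex and 84.5 to 149.9 cpm (median 90.6) in the cerebellum (-1.56). The sum over the list ranged from 354 to 468 cpm in the cortex and from 150.00 to 278 cpm in the cerebellum. Ttr, the defining gene of choroid plexus, stood at 37.3 to 112 cpm (median 96.5) in the cortex and 29.8 to 88.8 cpm (median 43.1) in the cerebellum and did not pass (-0.75, SE 0.25), whereas its mean in the hippocampus was 2079 cpm. Otx2, which granule cells of the posterior lobules also express, was the third gene higher in the cerebellum (4.39). The part of neighbouring tissue in the results was not tested beyond these values.

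The hippocampus lay nearer to the cortex for most of the genes that passed. On the log2 scale its mean was nearer to that of the cortex than to that of the cerebellum for 902 of the 1061 genes higher in the cerebellum, 85.01%, and for 1091 of the 1362 higher in the cortex, 80.1%. The same share over all genes tested was not counted, so these shares do not set the genes that passed apart from the rest. Prox1, of dentate and cerebellar granule cells, was an exception, with a mean of 456 cpm in the hippocampus, 49.2 (median) in the cortex and 199 (median) in the cerebellum.

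Transcripts were also tested 1 by 1. Of 17349 transcripts tested 1734 were higher in the cerebellum and 2241 in the cortex. Of 4082 genes with at least 2 transcripts tested, 1 gene, Syne1, had transcripts past the thresholds in opposite directions, which is 0.0245%. Syne1 encodes nesprin-1, a giant protein that ties the nuclear envelope to actin. The transcript Syne1-201 of GENCODE vM21, at chr10:5336941-5550692 of GRCm38 on the minus strand, covers the first part of the gene and ends within it, and Syne1-202, at chr10:5021579-5069063, is a short transcript that ends with the gene. In cpm of transcript counts Syne1-201 stood at 35.8 to 67.3 cpm (median 51.9) in the cortex and 6.504 to 10.9 cpm (median 8.34) in the cerebellum, a log2 fold change of -2.62 ± 0.14 (SE). Syne1-202 stood at 13.2 to 28.7 cpm (median 20.2) in the cortex and 34.4 to 53.4 cpm (median 40.4) in the cerebellum, a log2 fold change of 1.02 ± 0.14 (SE). No other Syne1 transcript went with Syne1-201, 6 of 12 passed toward the cerebellum and 5 did not pass, and several of these models had nearly the same counts. The gene was called higher in the cortex when its most abundant transcript stood for it (-2.62). With its transcripts summed the log2 fold change was 0.60, but models with nearly the same counts each entered that sum. Reads that such models share may be counted more than once there, so 0.60 does not give the direction of the gene.

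**Figure D4:**
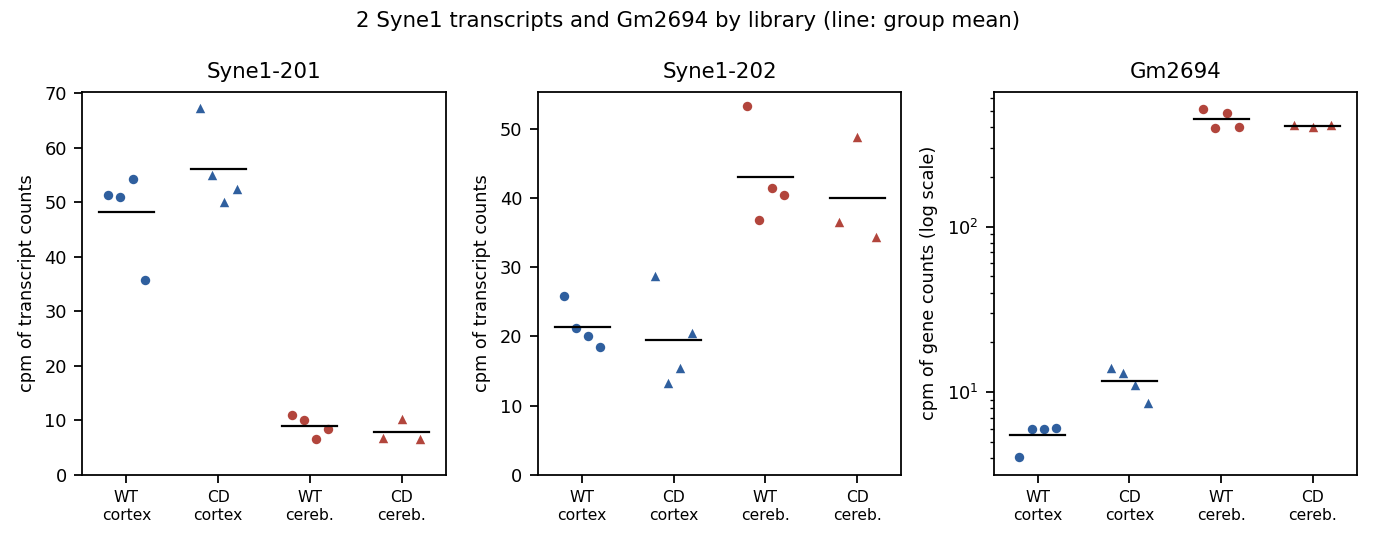
The y axes give cpm of transcript counts for Syne1-201 and Syne1-202, from 0, and cpm of gene counts for Gm2694 on a log scale, in each library of the 4 groups, with a line at the group mean. Syne1-201 lies higher in both cortex groups and Syne1-202 in both cerebellum groups, and Gm2694 lies higher in CD than in WT cortex.

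The regional differences were then compared between genotypes. No gene had a genotype by region interaction at an adjusted p below 0.05 in edgeR, 0% of 10852, with 474 genes at an unadjusted p below 0.05. The smallest adjusted p, 0.378, was that of Gm2694, a noncoding RNA transcribed from beside Cbln1 on the other strand, chosen here after its values were seen. It stood at 4.05 to 6.06 cpm (mean 5.52 ± 0.984 SD, n = 4) in WT and 8.58 to 14.1 cpm (mean 11.7 ± 2.44 SD, n = 4) in CD cortex and at 393 to 512 cpm (mean 448 ± 60.1 SD, n = 4) in WT and 402 to 411 cpm (mean 407 ± 4.68 SD, n = 3) in CD cerebellum. The groups did not overlap in the cortex and overlapped in the cerebellum, and the regional log2 fold change was 6.37 in WT and 5.13 in CD mice. DESeq2 called 1 gene, Gm2694, at an adjusted p of 0.00554. Over the alternatives in edgeR its adjusted p ran from 0.000299 without a filter to 1 without CD cerebellum mouse m118.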

How the data were processed

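RNA of whole brain regions was made into 3′ libraries with CelSeq2, and the authors aligned reads to mm10 (GRCm38) with STAR and counted them per RefSeq transcript with ESAT. The deposited table holds these raw counts for 22 libraries. Tool versions, the handling of molecular identifiers, and whether counting used strand are not given in the sources used here. Intervals on summed counts therefore cover counting error only.

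Of 85964 deposited transcripts 69280 matched a RefSeq symbol, without version, and each of 23033 genes was represented by its transcript with the most counts in all 22 libraries. Between 2757684 and 8638788 counts per library remained in the 15 libraries. Genes with 5 cpm in at least 2 libraries were tested in edgeR 4.0.16 (R 4.3.3) by the quasi-likelihood test with TMM scaling, genotype and region as terms, and Benjamini-Hochberg adjustment. The thresholds, an adjusted p below 0.01 and a fold above 2, follow the study's methods, and 0.05 was used for the interaction. DESeq2 1.42.0 and other scalings, filters and transcript choices were alternatives. The fits were tested on simulated counts with known changes. Promoters came from RefSeq for GRCm38.p6, and transcript positions from GENCODE vM21.

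The groups came from the labels. The regions pair by mouse number, since same-numbered libraries are of 1 animal, and deviations from group means of paired libraries correlated from -0.0811 to 0.0505 over the 7 mice (mean -0.0018). Libraries of 1 group come from separate animals.

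The members and gene lists were chosen with earlier results of these data known. Genes named in the text are the 15 with the largest differences in each direction among those at 20 cpm or more without overlap, the 10 most abundant that passed in each direction, up to 6 members of each list that passed in each direction by size of difference, up to 4 that did not by level, opposed members of family lists, genes with opposed transcripts, and Tulp4, Tbp and Rpl19. Chosen after their values were seen were 9530091C08Rik, Baiap2, Bcl11a, Bcl11b, Cartpt, Cfap74, Cort, Dlx1as, Ebf1, Ebf2, Ebf3, Gm2694, Grp, Itpr1, Kcnj6, Lhx2, Mef2c, Meis1, Npy, Pax6, Pcdh17, Plcb4, Zic1, Zic2 and Zic4. Some genes are not reported here.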

Additional observations from a re-analysis of the deposited data

Results flagged for a closer look

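In groups of 4 libraries (WT cortex, CD cortex and WT cerebellum) a library whose gap to its nearest neighbour passed Dixon's 95% critical value was set down for each gene named. This held for 43 groups of a gene and a region, in 39 of 209 genes, and chance alone gives about 1 in 20 groups tested, up to 3 for each gene. CD cerebellum, with 3 libraries, was not tested. Where all other libraries of a group were at 0, any read passes the critical value. The flags given below with the others at 0 were therefore fixed in advance and show no more than that reads were present. The cortex of CD mouse m118 stood apart for Cox6b2 at 11.43 cpm (others 7.318 to 7.58), Lrfn2 at 23.62 cpm (others 27.19 to 27.5) and Pde2a at 317 cpm (others 223.2 to 234.6). The cortex of CD mouse m138 stood apart for Cdh7 at 4.834 cpm (others 5.715 to 5.817), En1 at 0.1511 cpm (others at 0), Gdf10 at 0.7553 cpm (others 1.714 to 1.893), Prox1 at 31.42 cpm (others 48 to 49.21) and Slc17a6 at 15.56 cpm (others 40.63 to 44.42). The cortex of CD mouse m190 stood apart for Ret at 8.462 cpm (others 10.57 to 10.86). The cortex of CD mouse m242 stood apart for Cdh12 at 222.5 cpm (others 155.6 to 166.6), Dkkl1 at 30.28 cpm (others 49.4 to 51.24), Mef2c at 1002 cpm (others 827.2 to 855.1), Neurod2 at 355.2 cpm (others 273.6 to 281.3), Nxph1 at 4.669 cpm (others 8.572 to 8.991), Ppp1r17 at 0.7571 cpm (others 1.587 to 1.714), Stx1a at 1593 cpm (others 1203 to 1221) and Vip at 164.3 cpm (others 125.9 to 131). The cerebellum of WT mouse m162 stood apart for Gabra5 at 7.743 cpm (others 5.232 to 5.608). The cerebellum of WT mouse m164 stood apart for Camk2a at 132 cpm (others 25.98 to 32.02), Ebf1 at 72.03 cpm (others 59.24 to 60.88) and Tubb5 at 712.4 cpm (others 550.4 to 568.9). The cerebellum of WT mouse m240 stood apart for Cpsf4l at 20.18 cpm (others 34.39 to 35.58), Emx2 at 0.1869 cpm (others at 0), Gp1bb at 5572 cpm (others 6615 to 6684) and Septin5 at 5524 cpm (others 6569 to 6621). The cerebellum of WT mouse m244 stood apart for Chrm1 at 92.33 cpm (others 60.47 to 63.46), Cpne5 at 3.897 cpm (others 2.056 to 2.278), Gria4 at 181.1 cpm (others 195.3 to 197.8), Pcdh17 at 46.08 cpm (others 28.04 to 29.53), Robo3 at 0.1694 cpm (others at 0), Stx1a at 30.16 cpm (others 15.33 to 17.38) and Tfap2b at 47.78 cpm (others 40.13 to 40.93). The cortex of WT mouse m162 stood apart for Cpsf4l at 0.6229 cpm (others at 0), En1 at 0.1557 cpm (others at 0), Fat2 at 0.6229 cpm (others at 0) and Gm2694 at 4.049 cpm (others 5.966 to 6.062). The cortex of WT mouse m240 stood apart for Clic6 at 3.756 cpm (others 0.9262 to 1.246) and Cnih3 at 40.66 cpm (others 25.05 to 27.41). The cortex of WT mouse m244 stood apart for Kcnh4 at 56.17 cpm (others 33.15 to 36.44), Lrfn2 at 31.12 cpm (others 23.16 to 24.45), Otx2 at 0 cpm (others 0.6229 to 0.6947), Slc1a2 at 1180 cpm (others 1423 to 1440) and Syne1 at 71.12 cpm (others 103 to 107.4).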

How the results depend on the processing

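With the mouse as a replicate block, which pairs the regions, 2416 genes passed, and it moved no other count of calls by more than 1.5 times, save 1 RNA-binding protein gene called higher in the cerebellum in place of 0. Without a filter on low counts 3647 genes passed, of them 2116 higher in the cortex, because more genes were tested, and when the fold itself was tested against 2 with glmTreat 1575 passed, of them 622 higher in the cerebellum. RLE and upper quartile scaling, library totals, a filter of 5 cpm in 7 libraries, DESeq2, the likelihood ratio test, all 22 libraries, each genotype alone and summed transcripts gave between 2023 and 2619. Leaving out 1 library at a time gave 2383 to 2430 genes, 1037 to 1074 higher in the cerebellum and 1339 to 1366 higher in the cortex. The interaction gave 1 gene with DESeq2, 19 without a filter, 0 with the block and 0 to 1 with 1 library left out, the 1 being Gm2694 without CD cortex mouse m242. Genes with opposed transcripts numbered 2 without a filter (Kcnj6 joined Syne1) and 2 in CD libraries alone (Baiap2 joined), and 1 to 2 with 1 library left out. Baiap2 joined without CD cortex mouse m118, WT cerebellum mouse m244, or WT cortex mouse m164 or m240. The gene value of Syne1 turned from -2.62 to 0.60 when its distinct transcripts were summed, and that of Kcnj6 from 1.24 to -0.024. The sum for Syne1 includes several models higher in the cerebellum with nearly the same counts, whose shared reads may be counted more than once. Depth limits genes near 5 cpm, which is 13.8 counts in the shallowest library (WT cortex mouse m244) and 43.2 in the deepest (CD cortex mouse m242).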

Other observations

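Several gene groups were not described above. Of 32 tested semaphorins, plexins, slits and netrins and their receptors 7 were higher in the cerebellum and 10 in the cortex, with Sema4g (2.63, SE 0.12) and Slit2 (-3.12, SE 0.20), a guidance cue read by Robo receptors, as examples. Of 17 tested genes of Wnt, hedgehog and retinoic acid signalling 4 were higher in the cerebellum and 5 in the cortex. Gli1, the transcription factor that hedgehog signalling switches on, stood at 0 to 1.21 cpm (median 0.507) in the cortex and 3.05 to 5.995 cpm (median 5.26) in the cerebellum (3.12), and Wnt7b, a Wnt ligand, at 5.45 to 19.2 cpm (median 12.4) in the cortex and 2.202 to 5.79 cpm (median 3.504) in the cerebellum (-1.67).

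Of 22 tested neuronal RNA-binding proteins 6 were higher in the cortex, none was higher in the cerebellum (1 with the mouse as a block; 1, and 5 in the cortex, with library totals), and the list's median was -0.202, which was 0.04 with library totals. Khdrbs3, a splicing factor, stood at 54.96 to 83.1 cpm (median 76.7) in the cortex and 5.33 to 10.8 cpm (median 7.86) in the cerebellum (-3.32). Of 10 tested genes of the perineuronal net and matrix, 1 was higher in the cerebellum and 2 in the cortex, which were Ncan, neurocan (-4.06, SE 0.14), and Hapln1, a link protein of the net (-2.78, SE 0.21).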
